A study of Mus musculus with 6 samples.

Results

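Agouti, the genes beside it on mouse chromosome 2 and the receptors and cofactors of its pathway were followed in mammary glands and mammary tumours. The set was 10 genes, taken from the 24421 gene symbols of the deposited expression table by name: agouti itself (symbol a), its neighbours Raly, Eif2s2, Ahcy and Itch, the cofactors Atrn and Mgrn1, and the receptors Mc1r, Mc4r and Mc5r. The set was proposed with the difference between tumour and gland in view, so the values of its genes in that comparison are given as a description and carry no test. Tests are reported only for other genes.

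The series holds 6 libraries of total RNA from 5-month-old female mice. The 3 mammary gland libraries came from FVB/NJ; Tg(LINK-A) mice and the 3 mammary tumour libraries from FVB/NJ; MMTV-Tg(LINK-A) mice that carried tumours. LINK-A is a long non-coding RNA, and both donor labels name a LINK-A transgene. Only the tumour donors' label names MMTV, the mouse mammary tumour virus promoter, which is active in mammary epithelium but not only there. Tissue and donor label thus changed together and cannot be told apart. The labels do not say how many animals gave the 3 libraries of a group, nor whether animals were pooled, so the spread within a group may be technical.

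Agouti is a small secreted protein that blocks the melanocortin receptor of pigment cells and so switches hair pigment from black to yellow. In the skin it is made by the dermal papilla of the hair follicle. Melanocortin receptors are coupled to cyclic AMP: peptides cut from pro-opiomelanocortin activate them, and agouti and its relative Agrp counter that activity. The gene is a classic case of misplaced expression, since in lethal yellow mice a deletion removes Raly and Eif2s2 sequence and puts agouti under the Raly promoter. FVB mice are albino, so coat colour does not report on agouti in them.

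Agouti was annotated on the plus strand of chromosome 2, from 154791402 to 155051012 in mm10, with 6 transcripts of which 4 had coding sequence (GENCODE M21). The coding sequence of the transcript a-201 had 3 exons and ran from 155045622 to 155050795. The transcript a-204 began far upstream, with a noncoding first exon at 154791402 to 154791548 that lay inside the first exon of Raly (154791096 to 154791548) and ended at the same base. That exon is 147 bases long, and these were the only exon bases that agouti shared with Raly, out of 1169 agouti exon bases. None of the 393 coding bases of agouti fell in an exon of Raly, Eif2s2, Ahcy or Itch. The first coding base of agouti lay 178 kb beyond the end of Raly, 254 kb from the start of a-204 and 32.1 kb from the start of a-201. As annotated, a-204 ended at 155047727, before the last coding exon (155050628 to 155050795), which a-201 and a-202 both held in full. The transcripts a-203 and a-202 began between the starts of a-204 and a-201, at 154951180 and 154951219. The deposited table gives 1 value per symbol, so it does not say which of these starts was used.

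The last coding exon is shown because it holds the cysteine-rich end of the protein, the part that binds melanocortin receptors. It covers 56 of the 131 codons and 10 of the 11 cysteine codons (chromosome 2, 155050628 to 155050795, plus strand, mm10, GENCODE M21, cysteine codons in capitals).
Agouti last coding exon: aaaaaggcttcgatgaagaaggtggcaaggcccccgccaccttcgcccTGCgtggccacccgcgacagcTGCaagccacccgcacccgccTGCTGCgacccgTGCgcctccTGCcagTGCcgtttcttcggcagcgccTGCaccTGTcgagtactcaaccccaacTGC

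The 250 bases before the RefSeq start of agouti and of Raly are shown because annotated agouti transcripts begin near both (RefSeq, GRCm38.p6, plus strand, CpG dinucleotides in capitals). The agouti window runs from 155013320 to 155013569 and the Raly window from 154790860 to 154791109 on chromosome 2. Both end past GENCODE starts, of a-206 (155013472) and a-201 (155013531) and of Raly (154791096), so their last bases are exon in that annotation.
Agouti promoter: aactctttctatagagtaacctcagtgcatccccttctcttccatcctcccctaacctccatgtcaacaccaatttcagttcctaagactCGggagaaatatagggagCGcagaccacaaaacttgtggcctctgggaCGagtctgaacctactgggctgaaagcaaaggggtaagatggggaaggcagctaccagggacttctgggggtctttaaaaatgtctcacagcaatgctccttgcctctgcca
Raly promoter: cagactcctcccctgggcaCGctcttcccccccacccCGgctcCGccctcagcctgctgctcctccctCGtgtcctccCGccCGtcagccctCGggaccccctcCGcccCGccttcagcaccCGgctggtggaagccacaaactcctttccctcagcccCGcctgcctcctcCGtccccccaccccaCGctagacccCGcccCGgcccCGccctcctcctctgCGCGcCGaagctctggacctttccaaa

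The windows differed in base composition. The agouti window held 3 CpG and 50% G or C, and the Raly window 19 CpG and 72.8% G or C, against medians of 6 CpG and 52.4% over 32851 promoter windows of the same length. At most 3 CpG were found in 37.8% of those windows and at least 19 in 19.7%, while 92.1% held at least 1. Searched on both strands, the GC box letters GGGCGG, which contain a CpG, occurred 5 times before Raly and not before agouti, and were held by 32.7% of windows. CCAAT occurred once before agouti and not before Raly (33.8% of windows), and TATAAA in neither (12.4% of windows). These are matches of letters and not shown sites.

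Agouti was at or near 0 in the glands and among the most abundant transcripts of the tumours. Its gland values were 0, 0.698 and 0 FPKM, and tumours 1 to 3 held 793, 702 and 836 FPKM, where FPKM is a level corrected for transcript length and library size. All 3 tumours lay far above all 3 glands, and gland 2 was the only gland with any signal. The group means were 0.233 ± 0.403 and 777 ± 68.6 FPKM (SD, n = 3 each).

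By FPKM, agouti ranked 117th, 111th and 77th of all symbols in tumours 1 to 3, and 13913th in gland 2. On the scale of log2(FPKM + 1), used for every log2 difference here, tumour minus gland was 9.34 (SE 0.22). The SE here and below is the moderated one of limma, the program used for testing. It draws on the variance of other genes as well as on the gene's own libraries. Among the 13364 tested genes, those whose mean reached 1 FPKM, 1 gene had a larger positive difference. The size depends on the added constant because the gland values are so low: with 0.1 in place of 1 the difference was 11.92. It was 9.29 without tumour 3, and 8.84 against gland 2 alone.

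Variation between tumours was small beside this difference. The tumour values of agouti had an SD of 0.13 on the log2 scale, and 24.9% of tested genes had a smaller one (median of tested genes 0.22). Tumour 3 stood apart in other respects: the SD over genes of its log2 difference from tumours 1 and 2 was 0.65 and 0.54, against 0.38 between tumours 1 and 2. It also had the lowest sums of adipocyte, fibroblast and lymphocyte markers. Agouti was highest in tumour 3, at 836 FPKM, as were the sums of luminal epithelium and hair follicle markers (3516 and 29.0 FPKM). The part of any cell type in this order was not tested.

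The tumours contained more luminal epithelial transcript than the glands. All 10 luminal epithelium markers passed the test as higher in the tumours (median log2 difference 1.43, against 0.0083 for all tested genes). The test was limma's, with Benjamini-Hochberg adjustment over all tested genes, and called 45.1% of them, 21.9% higher and 23.1% lower. Keratin 8 (Krt8), for instance, rose from 228 ± 3.98 to 869 ± 31.1 FPKM (adjusted p = 3.8e-05). The luminal markers summed to between 1169 and 1245 FPKM in the glands and between 3100 and 3516 FPKM in the tumours. Set against that sum, agouti came to 25.2%, 22.6% and 23.8% in tumours 1 to 3, to 0.0597% in gland 2 and to 0 in glands 1 and 3. Of the markers of other mammary cells, 5 of 8 basal, 8 of 8 fibroblast, 2 of 8 lymphocyte and 4 of 7 macrophage genes were called lower, and 1 macrophage gene higher. The part of luminal epithelium and of these other cells in the agouti values was not tested. Bulk tissue cannot tell fewer cells of a type from less RNA per cell.

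**Figure D1:**
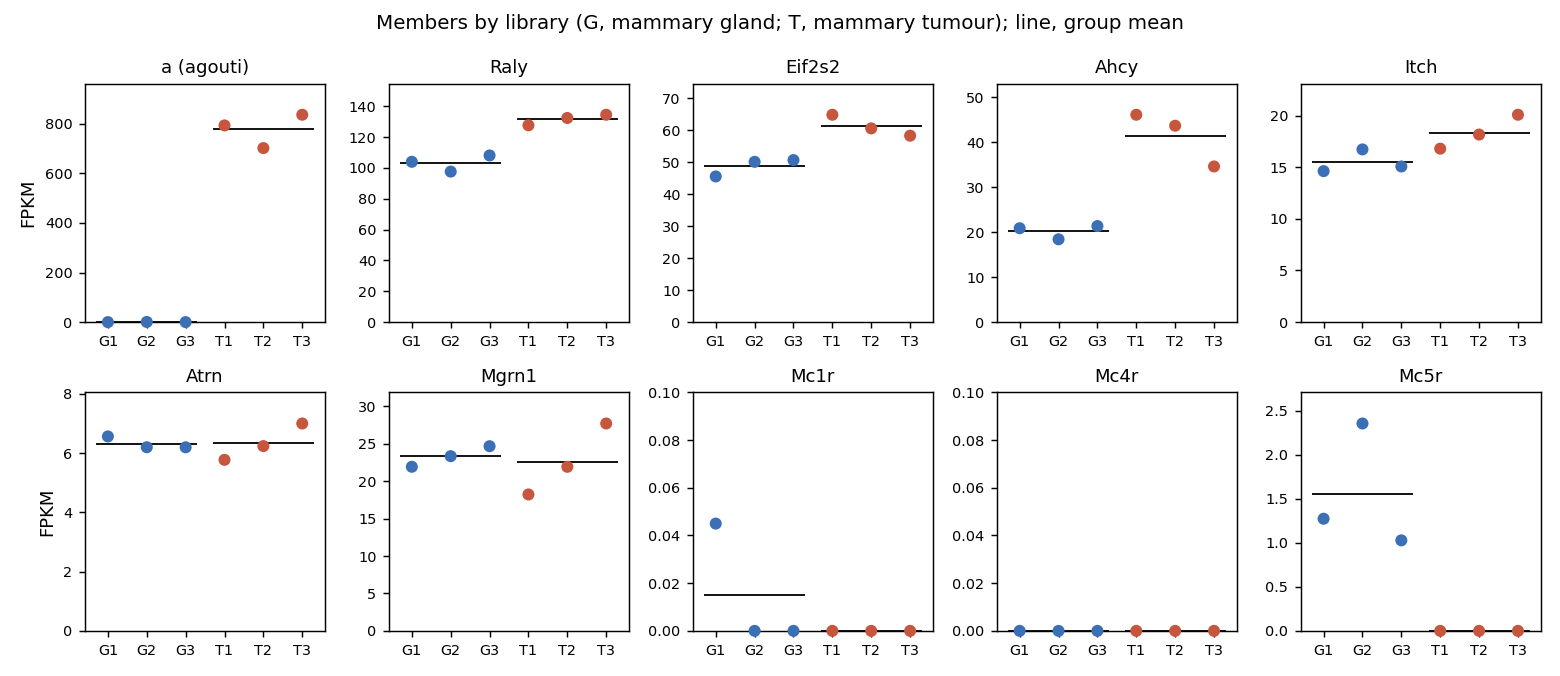
FPKM of each of the 10 genes in mammary glands 1 to 3 (G1 to G3, blue) and mammary tumours 1 to 3 (T1 to T3, red), with a line at each group mean and a separate vertical axis from 0 for each gene. Agouti lies at 702 to 836 FPKM in the tumours and at 0 to 0.698 FPKM in the glands, while its neighbours differ far less between the groups.

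The neighbours were expressed in both tissues and differed much less. Raly, an RNA-binding protein of the hnRNP family, measured 104, 97.6 and 108 FPKM across glands 1 to 3 and 128, 132 and 135 FPKM in tumours 1 to 3. Every tumour lay above every gland, with means of 103 ± 5.28 and 132 ± 3.51 FPKM, a ratio of 1.27 and a log2 difference of 0.35 (SE 0.09). Raly's difference was 0.28 with libraries scaled to a common sum and 0.26 after quantile normalization, which moved the median of all tested genes to 0.11.

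In the tumours agouti stood at 6.21, 5.30 and 6.22 times the Raly level, and in gland 2 at 0.00715 times it. The gene whose first exon contains the upstream agouti exon was the more abundant of the pair in each gland and the less abundant in each tumour. Which start the agouti transcripts used was not tested.

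Eif2s2 encodes the beta subunit of translation initiation factor eIF2 and lies on the other strand inside the annotated agouti span, with no exon base in common. It stood at 45.6, 50.1 and 50.7 FPKM across the glands and 64.9, 60.6 and 58.3 FPKM across the tumours. The groups did not overlap, and the means of 48.8 ± 2.81 and 61.3 ± 3.32 FPKM gave a ratio of 1.26 and a log2 difference of 0.32 (SE 0.10).

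Ahcy encodes adenosylhomocysteinase, which clears the by-product of methylation reactions, and its span begins 8.30 kb past the end of agouti (155059310 to 155074497, minus strand). It stood at 20.9, 18.4 and 21.4 FPKM across the glands and 46.1, 43.7 and 34.6 FPKM across the tumours. All tumours were above all glands, with tumour 3 the lowest tumour. The ratio of means was 2.05 and the log2 difference 0.99 (SE 0.14), the next largest after agouti among the neighbours in the set.

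Itch encodes a HECT ubiquitin ligase and is disrupted, together with agouti, in the itchy mouse. It starts 82.5 kb past agouti (155133509 to 155226855, plus strand). It stood at 14.6, 16.7 and 15.1 FPKM across the glands and 16.8, 18.2 and 20.1 FPKM across the tumours. Tumour 1 lay just above gland 2, so the groups barely separated, and the log2 difference was 0.23 (SE 0.11).

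**Figure D2:**
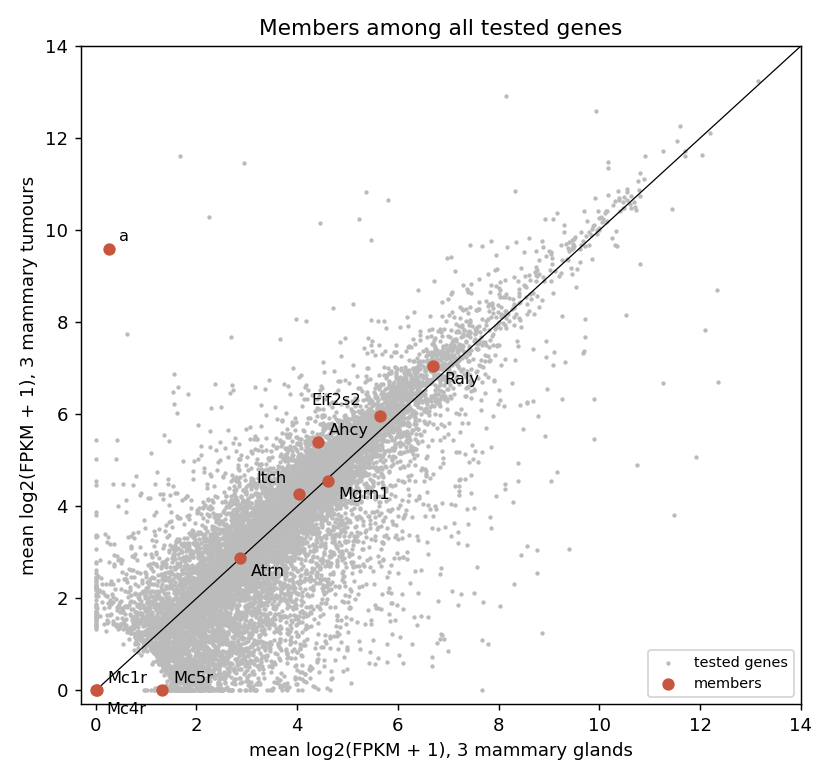
Mean log2(FPKM + 1) over 3 mammary glands (horizontal) and 3 mammary tumours (vertical) for all tested genes (grey) and the 10 genes of the set (red), with the line of equal values. Agouti lies at 0.25 and 9.60, far above the line, and the other expressed genes of the set lie close to it.

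Of the 7 genes of the set whose mean reached 1 FPKM, 5 had groups that did not overlap, all higher in the tumours. They are agouti and its 4 neighbours. Groups did not overlap for 58.2% of all tested genes, with tumours above for 29.3% and below for 29%. Since the set was chosen on this comparison, nothing is read from its count. The 3 genes that did not reach that mean are the receptors Mc1r, Mc4r and Mc5r, and of these Mc5r lay lower in every tumour than in every gland. Agouti reached that mean only through its tumour values.

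Beyond the set, the genes within 1 Mb of the agouti span held calls in both directions. Of 79 other annotated genes there, 55 had a value, and 24 were tested and not in the set. Limma called 8 higher (33.3%, against 21.9% of all tested genes) and 3 lower (12.5%, against 23.1%), together 45.8% against 45.1%, and 13 had no call. Whether these shares differ was not tested. Their median log2 difference was 0.20, against 0.0083 for all tested genes, and the values ran from -2.64 to 3.21. Without tumour 3 the count of lower genes was 5. The 10 nearest tested genes, 5 on each side, gave 3 higher calls and 7 with no call.

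The nearest of them upstream, Chmp4b, a subunit of the ESCRT-III membrane scission machinery, stood at 88.3, 79.2 and 86.6 FPKM in the glands and 157, 164 and 152 in the tumours. Chmp4b rose by a log2 difference of 0.89 (SE 0.10, adjusted p = 5.2e-04). Pigu, a subunit of the GPI transamidase, rose by 0.66 (adjusted p = 0.00244). The cell cycle factor E2f1 passed narrowly (0.41, adjusted p = 0.0346). It lost its call without gland 1, 2 or 3 and without tumour 1 or 2 (adjusted p up to 0.131). The E2f1 call was also lost with no filter (0.0531), a mean of at least 5 FPKM (0.0563) and a common library sum (0.113). The same held with the replicate number as a block (0.105) and tumours 1 and 2 averaged (0.0758). Its smallest adjusted p over the alternatives was 0.00513. The nearest tested gene downstream outside the set, the dynein light chain gene Dynlrb1, did not pass (0.21, adjusted p = 0.188).

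Larger differences lay further out and in both directions. Bpifb5, a BPI fold gene, was at 0.453, 0 and 0 FPKM across the glands and 6.48, 7.29 and 17.5 FPKM across the tumours (3.21, SE 0.37, adjusted p = 6.5e-04). With 0.1 added in place of 1, the value for Bpifb5 was 5.75. Gdf5, a growth factor of the BMP family, rose from 1.499 ± 0.219 to 6.06 ± 1.45 FPKM (1.48, adjusted p = 9.7e-04). Acss2, which makes acetyl-CoA from acetate, fell from 149 ± 8.67 to 23.8 ± 6.85 FPKM (-2.64, adjusted p = 1.6e-04), and Procr, the endothelial protein C receptor, fell by 1.76 (adjusted p = 0.00105).

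**Figure D3:**
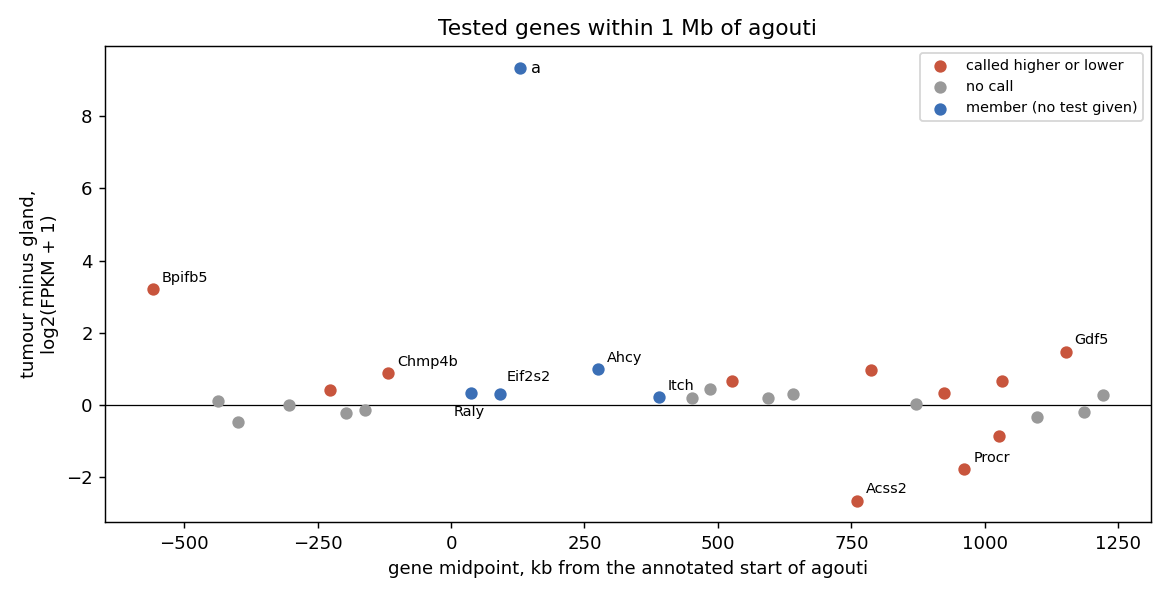
Difference of tumour minus gland in log2(FPKM + 1) for the tested genes within 1 Mb of agouti, against the distance of each gene's midpoint from the annotated start of agouti in kb. Agouti stands at 9.34, its neighbours Raly, Eif2s2, Ahcy and Itch between 0.23 and 0.99, and the other tested genes between -2.64 (Acss2) and 3.21 (Bpifb5).

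The receptors Mc1r and Mc4r were at or near 0 in every library. Mc1r, the pigment cell receptor and the main target of agouti in skin, was listed at 0.0450 FPKM in gland 1 and at 0 in the other 5 libraries. Mc4r, the hypothalamic receptor of appetite control, was listed at 0 in all 6. Depth was not given, so no detection limit can be set for these zeros.

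Mc5r, a receptor of sebaceous and other exocrine glands, had gland values of 1.27, 2.35 and 1.03 FPKM, and each of the 3 tumours was listed at 0. The gland that was highest in Mc5r, gland 2, was also the one with an agouti value. Both values were low, and any link between them was not tested. Mc5r fell below the filter on low values and entered no test.

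The rest of the receptor list was lower in the tumours where it was measured at all. Mc2r, the receptor for corticotropin, stood at 8.26, 7.997 and 8.59 FPKM across the glands and 0.465, 0 and 0 FPKM across the tumours. Its log2 difference was -3.03 (SE 0.20, adjusted p = 7.9e-05), or -5.56 with 0.1 added. Mrap, the accessory protein that Mc2r needs to reach the cell surface, stood at 113, 118 and 121 FPKM across the glands and 0.945, 3.30 and 0.469 FPKM across the tumours. Mrap fell by 5.68 (SE 0.37, adjusted p = 7.8e-05), and the difference was -6.53 with 0.1 added. Mc3r was listed at 0 throughout and the accessory protein gene Mrap2 only in gland 3, at 0.21 FPKM. Thus 0 of the 2 tested list genes outside the set were higher and 2 lower, against 21.9% and 23.1% of all tested genes.

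Mouse fat cells are a known site of Mc2r and Mrap, and adipocyte markers moved with them. All 10 adipocyte markers were called lower (median log2 difference -6.09), against 23.1% of all tested genes. Among them were the lipid droplet gene Plin1 (-6.19, SE 0.42) and the leptin gene Lep (-4.91, SE 0.24). The adipocyte markers summed to between 11126 and 12228 FPKM in the glands and to 315, 299 and 59.6 FPKM in tumours 1 to 3. Their part in the receptor values was not tested.

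Ligands other than agouti were scarce, and the enzymes that process them went both ways. Agrp was listed at 0.540 FPKM in gland 3 and at 0 elsewhere. Pomc, the precursor of the activating peptides, was at most 0.137 FPKM in the glands and listed at 0 in the tumours. Of its convertases, Pcsk1 was at most 0.0984 FPKM and Pcsk2 was listed at 0 in all libraries.

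The carboxypeptidase Cpe, which trims peptide hormones, rose from 13.8, 22.8 and 16.6 FPKM in the glands to 60.5, 63.3 and 134 FPKM in the tumours (2.14, SE 0.33, adjusted p = 0.00225). The amidating enzyme Pam fell by 0.74 (adjusted p = 0.00127). Prcp, a carboxypeptidase that inactivates alpha-melanocyte-stimulating hormone, fell by 1.23 (adjusted p = 0.00221). Corin, the protease that limits agouti action in the hair follicle, was at most 0.120 FPKM in any library. Outside the set, 1 of 3 tested list genes was higher and 2 were lower, against 21.9% and 23.1% of all tested genes.

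**Figure D4:**
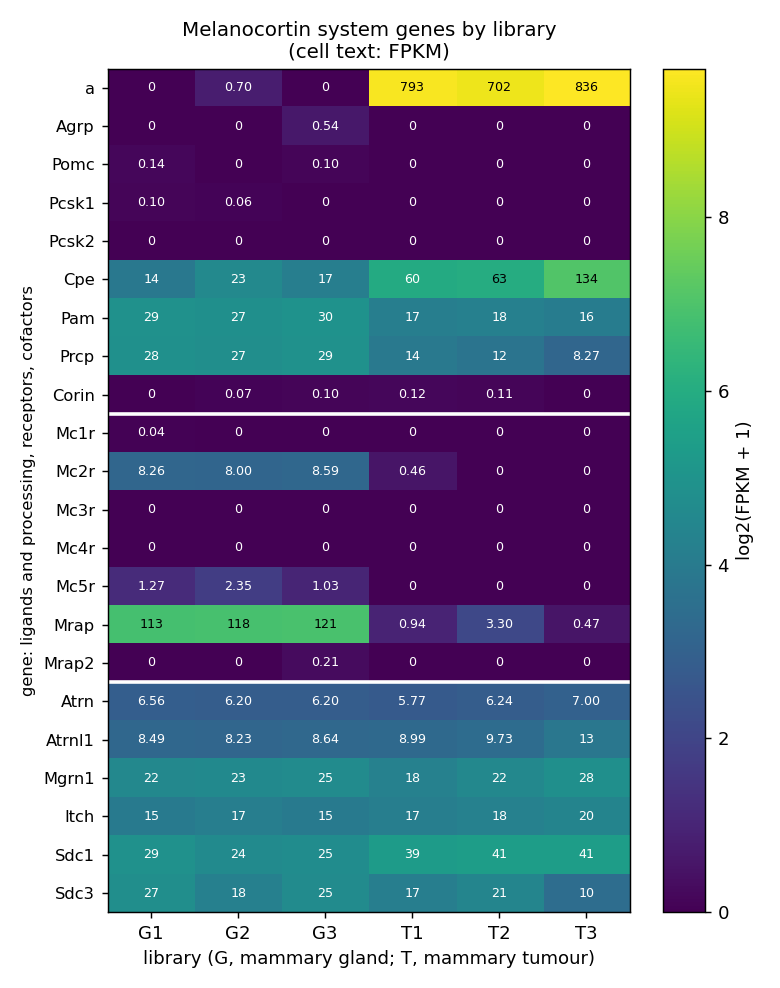
Colour shows log2(FPKM + 1) and the text in each cell the FPKM of 22 melanocortin system genes (rows: ligands and their processing, receptors and accessory proteins, cofactors) in glands G1 to G3 and tumours T1 to T3 (columns). Agouti is bright in the tumours, at 702 to 836 FPKM, while Mc1r and Mc4r are dark throughout and Mc2r, Mc5r and Mrap are brighter in the glands.

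The cofactors Atrn and Mgrn1 were present in every library, and gland and tumour values overlapped. Atrn encodes attractin, the membrane protein mutated in mahogany mice and required for agouti to act on pigment cells. It stood at 6.56, 6.20 and 6.20 FPKM across the glands and 5.77, 6.24 and 6.999 FPKM across the tumours. The tumours spanned the gland values, and the means were 6.32 ± 0.211 and 6.34 ± 0.619 FPKM. The log2 difference was 4.2e-04 (SE 0.12), but 0.20 after quantile normalization.

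Mgrn1, the ubiquitin ligase mutated in mahoganoid mice, stood at 21.9, 23.4 and 24.7 FPKM across the glands and 18.2, 21.9 and 27.7 FPKM across the tumours. Its tumours were spread more widely than its glands, with log2 SDs of 0.29 and 0.08, and tumour 3 held 1.52 times the level of tumour 1. The log2 difference was -0.06 (SE 0.16), 0.08 without tumour 1 and -0.21 without tumour 3, so its sign rested on single tumours.

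The attractin relative Atrnl1 was not called (0.29, adjusted p = 0.177), at 8.49, 8.23 and 8.64 FPKM across the glands and 8.99, 9.73 and 13.4 FPKM across the tumours. Of the syndecans, cell surface proteoglycans of which Sdc3 aids melanocortin antagonists in the brain, Sdc1 rose by 0.62 (adjusted p = 0.00395). Sdc3 did not pass (-0.54, adjusted p = 0.148). Of the 3 tested cofactors outside the set, 1 was higher, against 21.9% of all tested genes, and 2 had no call.

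Pigment cell genes gave no common direction, and the pigment enzymes were near 0. Of 22 genes in the melanocyte list 10 were tested, with 3 higher, 4 lower and 3 not called (median -0.37). Over all tested genes 21.9% were called higher and 23.1% lower. Tyrp1, Slc45a2, Oca2 and Gpr143 were listed at 0 in all libraries, the tyrosinase gene Tyr was at most 0.0765 FPKM and Dct at most 0.281 FPKM.

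The melanophilin gene Mlph, which links organelles to myosin, rose by 1.23 (adjusted p = 3.6e-04). Kitl, the ligand of Kit, fell by 0.94 (adjusted p = 9.6e-04), the endothelin receptor gene Ednrb by 1.78 (adjusted p = 8.7e-04) and the myosin gene Myo5a by 1.22 (adjusted p = 0.00208). Kit did not pass (-0.26, adjusted p = 0.243), though it did without tumour 3 (-0.42, adjusted p = 0.0235, between 0.0235 and 0.756 over its alternatives). Sox10, a neural crest factor also made by mammary epithelium and named here, like Mlana and Mitf, after its values were seen, was at 62.5, 56.5 and 61.1 FPKM across the glands and 121, 152 and 229 FPKM across the tumours (1.41, adjusted p = 0.00251).

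Mlana, a marker of melanocytes, measured 0.516, 0.570 and 0 FPKM in the glands and 4.29, 3.61 and 0.807 FPKM in tumours 1 to 3. Every tumour lay above every gland, with tumour 3 close to the glands, and Mlana was called higher (1.40, adjusted p = 0.0357). The difference was 2.83 with 0.1 added. The call was lost without gland 1, 2 or 3 and without tumour 1 or 2 (adjusted p between 0.00179 and 0.332 over its alternatives). Mitf, the master transcription factor of melanocytes, was called lower (-0.87, adjusted p = 0.00362), a call lost after quantile normalization (-0.42, adjusted p between 0.00338 and 0.0559 over its alternatives). The part of pigment cells in the agouti values was not tested.

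Markers of the skin, where agouti is normally made, were called in both directions within the dermal papilla list and within the hair follicle list. Of 7 tested dermal papilla genes 1 was higher and 4 were lower (median -1.37), against 21.9% and 23.1% of all tested genes. Sox2 was listed at 0 throughout. The Wnt inhibitor gene Wif1 fell by 2.12 and the retinoic acid binding gene Crabp1 by 3.50, while the stem cell marker Prom1 rose by 2.19 and Trps1 was not called (0.13, adjusted p = 0.305). The dermal papilla genes summed to between 87.5 and 106 FPKM in the glands and between 61.0 and 68.0 FPKM in the tumours.

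Hair follicle genes were low in every library, and most had a higher mean log2 level in the tumours, with the largest sum in tumour 3. The 16 summed to 4.19, 5.70 and 5.42 FPKM in glands 1 to 3 and to 5.45, 8.79 and 29.0 FPKM in tumours 1 to 3, and 14 were below the filter on low values. Of the 16, 13 had a higher mean log2 level in the tumours and 3 a lower one (median difference 0.42), and 9 were listed at 0 in every gland and above 0 in at least 1 tumour. Every tumour lay above every gland for 5 of the 16, Krt33a, Krt33b, Krt71, Krt86 and Tchh, and below for 1, Msx2. All but Tchh and Msx2 were named after their values were seen. Among all tested genes, tumours lay above every gland for 29.3% and below for 29%. Most of the 16 were not among those tested genes. No share over all genes was counted for the 13 and the 9, so nothing is read from these counts. The hair keratin gene Krt33a was at 1.46, 0.845 and 3.51 FPKM in tumours 1 to 3, and Krt33b at 0.538, 1.13 and 1.64 FPKM, with both listed at 0 in the glands. With no filter on low values 3 were called higher, Krt33a, Krt33b and Krt71, and 1 lower, Msx2. That fit called 2954 genes higher and 3803 lower, over the 24421 symbols without the 6247 at 0 in all libraries. Of the 2 above the filter, the sheath gene Tchh was higher, at 0.850, 2.20 and 7.64 FPKM in tumours 1 to 3 and at most 0.268 FPKM in the glands (1.64, adjusted p = 0.0399), and Msx2 was lower (-1.41, adjusted p = 0.00183). Tchh lost its call without gland 1, 2 or 3 or tumour 2 (adjusted p up to 0.108). The Tchh call was also lost with no filter (0.0527) and with the replicate number as a block (0.0510). Its smallest adjusted p over the alternatives was 0.0121. The Tchh difference was 1.03 without tumour 3 and 3.20 with 0.1 added. The part of hair follicle tissue in the agouti values was not tested.

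Over all tested genes 21.9% were called higher and 23.1% lower. The epidermis list had 4 tested genes, 1 higher and 1 lower, and the sebaceous gland list 6, with 2 of each direction. In the latter the keratin gene Krt79 rose by 2.55 (adjusted p = 3.6e-04), and Elovl3, a fatty acid elongase also found in fat, had gland values of 9.22, 8.99 and 5.76 FPKM, with 0 listed for every tumour (adjusted p = 7.9e-05).

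**Figure D5:**
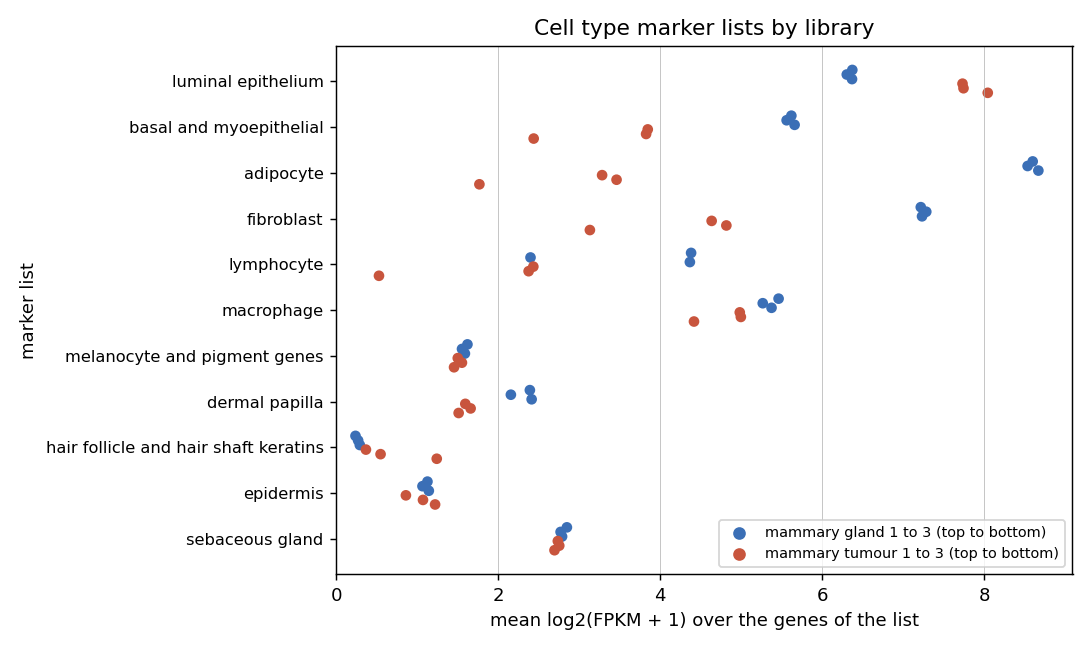
Mean log2(FPKM + 1) over the genes of each cell type marker list (rows) in glands 1 to 3 (blue) and tumours 1 to 3 (red), each drawn from top to bottom. Luminal epithelium is higher in the tumours, adipocyte and fibroblast lists are lower, and the hair follicle list is at 1.24 in tumour 3 and at 0.55 or less in the other libraries.

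Genes that respond to cyclic AMP, the second messenger of melanocortin receptors, went both ways. Of 11 tested 2 were higher, 4 lower and 5 not called (median -0.32). The shares over all tested genes were 21.9% higher and 23.1% lower. The immediate early genes Fos (1.31, adjusted p = 0.00138) and Junb (1.20, adjusted p = 5.6e-04) rose, and the phosphatase gene Dusp1 (-2.02, adjusted p = 1.2e-04) and the cyclic AMP phosphodiesterase gene Pde4d (-1.34, adjusted p = 0.00201) fell.

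The pathway lists of the neighbours were short, and over all tested genes 21.9% were called higher and 23.1% lower. In the eIF2 list of Eif2s2, 5 of the 9 tested genes outside the set rose, 0 fell and 4 were not called (median 0.35), among them the alpha subunit Eif2s1 (0.73, adjusted p = 0.00204) and the exchange factor subunit Eif2b2 (0.86, adjusted p = 0.00168). In the methionine cycle list of Ahcy, 0 of 9 rose, 4 fell and 5 were not called (median -0.08). There Ahcyl2, a relative of Ahcy, fell by 1.29 (adjusted p = 1.6e-04) and the nicotinamide methyltransferase Nnmt from 26.7 ± 4.28 to 1.62 ± 1.46 FPKM (-3.60, adjusted p = 0.00119, and -3.02 without tumour 3). Mat2a, which makes S-adenosylmethionine, was not called (0.15, adjusted p = 0.197).

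Among the Nedd4 family ligases related to Itch and their adaptors, 2 of 8 rose, 2 fell and 4 were not called (median 0.26). Differences between these lists and all tested genes (21.9% higher, 23.1% lower) were not tested. The ligase gene Wwp2 (0.81, adjusted p = 0.00169) and the adaptor gene Ndfip2 (0.91, adjusted p = 6.3e-04) rose, and Nedd4 fell from 205 ± 8.34 to 131 ± 20.2 FPKM (-0.65, adjusted p = 0.00834).

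Few genes shared the on and off pattern of agouti. Only 2 genes were under 1 FPKM in every gland and at least 100 FPKM in every tumour, agouti and the kallikrein peptidase gene Klk10. Likeness was also measured as the root mean square difference in log2(FPKM + 1) from agouti over the 6 libraries. The nearest was Klk10, at 1.496, with 135, 139 and 510 FPKM in the tumours. Next came Saa3 at 1.73 and Saa2 at 1.92, acute phase serum amyloid genes, and then Apol9a, an apolipoprotein L gene, at 2.19 and the water channel gene Aqp5 at 2.23. The order within the tumours differed: Saa3 stood at 2563, 1631 and 472 FPKM in tumours 1 to 3, and Aqp5 at 184, 188 and 238 FPKM. Saa2 and Apol9a have near-identical copies, and the division of reads among them is uncertain.

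Glands 1 and 3 carried more lymphocyte transcript than gland 2, with summed lymphocyte markers of 182, 181 and 43.6 FPKM in glands 1, 3 and 2. Without both, 1 gland was left, and the spread in the test came from the tumours alone, with the lone gland assumed to vary like them. In that fit some calls were lost, those of Sox10 and Mlana among them. Also lost were those of Cpe, Pam, Prcp, Ednrb, Myo5a, Fos, Nnmt, Eif2s1, Eif2b2, Wwp2, Nedd4, Tchh, E2f1, Pigu and Procr. The folds of all these genes changed by 1.02 to 1.30 times. Of the 40 called genes followed from the lists and the neighbourhood, 0 turned direction. Sox10 and Mlana, which are not among the 40, also kept their direction. Fewer samples alone can end a call.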

How the data were processed

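RNA of 3 mammary gland and 3 mammary tumour libraries was compared. Per the submitters' processing notes HISAT2, StringTie and mm10 were used, with no versions or roles given. The deposited table has no unit in its header. The authors' values are treated here as FPKM, an inference from StringTie and from decimals at or above 0 whose library sums ran from 486080 to 582996. Absolute depth is unknown, and FPKM carries no counting error into the test. Whether strand was used in counting is not stated. Positions came from GENCODE M21 (GRCm38, the mm10 build), where 95.6% of symbols matched exactly 1 gene, and promoter sequences, found for 7 of the 10 genes, from RefSeq.

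Genes whose mean reached 1 FPKM (13364) were tested on log2(FPKM + 1) with limma 3.58.1 in R 4.3.3 (mean-variance trend, 2-sided, all 6 libraries, Benjamini-Hochberg threshold 0.05). The script was tested on simulated data. The members and lists were chosen with earlier results of these data known. Named list genes are a subset of up to 4 called members with the smallest p, up to 2 uncalled with the highest mean, and members near 0. Neighbours named are among the nearest 5 tested per side and called genes with a log2 difference of at least 1. Alternatives were a pseudocount of 0.1, no filter, a mean of at least 5 FPKM, 3 scalings, a replicate block and libraries left out. Averaging tumours 1 and 2 as 1 sample was added after seeing the data.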

Additional observations from a re-analysis of the deposited data

How the results depend on the processing

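The log2 difference of agouti lay between 9.22 and 9.60 with any 1 library left out, at 9.34 with the replicate number as a block, at 11.92 with a pseudocount of 0.1 and at 8.84 without glands 1 and 3 together. The replicate numbers showed no sign of pairing the samples: deviations of same-numbered glands and tumours had r = -0.05, -0.12 and -0.12 over genes. Glands and tumours of different numbers had r between -0.01 and 0.10. Genes are no replicates, and deviations from means of so few libraries cannot exclude a pairing or a shared batch. The block gave 4728 calls over all genes against 6023, with 6 higher and 3 lower within 1 Mb of agouti against 8 and 3, and ended the calls of E2f1 and Tchh. Without glands 1 and 3, where 1 gland was left and the spread came from the tumours alone, there were 2052 calls over all genes (790 higher, 1262 lower), 5 higher genes within 1 Mb, and 13 higher and 24 lower list genes against 30 and 55. A mean of at least 5 FPKM left 1864 lower genes against 3090. Genes lower within 1 Mb came to 7 with no filter, and to between 3 and 5 with any 1 library left out, the 5 without tumour 3. The depth, and so the limit on what a listed 0 could hide, is unknown.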
